A study of Homo sapiens with 20 samples.

Results

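The lysyl oxidases LOX, LOXL1, LOXL2, LOXL3 and LOXL4, the lysyl hydroxylases PLOD1, PLOD2 and PLOD3, the prolyl 4-hydroxylase subunit P4HA2 and the collagen chaperone SERPINH1 were followed across 8 groups of RNA-seq libraries. They were chosen by name, and all 10 were found among the 23368 gene rows of every library. The libraries came from Panc1, a line derived from a carcinoma of the pancreatic duct, and A549, a line derived from a lung adenocarcinoma; the labels tag both as SV40 large T antigen immortalized. Each line had 4 groups, spelled in the labels siCont (a control siRNA), TGFb, siKLF10 (an siRNA to KLF10) and siKLF10+TGFb, with 3 libraries a group in Panc1 and 2 in A549. The TGFβ dose was 5 ng/ml, and exposure lasted 72 h. The labels of the TGFb libraries name no siRNA, so a difference between TGFb and siCont and any difference in transfection cannot be told apart. The same limit holds for siKLF10+TGFb against TGFb, and for every interaction or line difference that uses the TGFb libraries. KLF10 is a zinc-finger transcription factor that TGFβ induces, and the series' title concerns its role as a brake on the epithelial-to-mesenchymal change that TGFβ drives.

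Collagen is modified inside the cell before it is secreted. Prolyl 4-hydroxylases, tetramers of catalytic alpha subunits such as P4HA2 with P4HB, hydroxylate prolines and so stabilise the triple helix, and SERPINH1 (HSP47) binds the folded procollagen helix in the endoplasmic reticulum. Lysyl hydroxylases add hydroxyl groups to lysines. PLOD1 acts mainly on lysines of the helix, PLOD2 on those of the telopeptides, and PLOD3 also transfers glucose to hydroxylysine. Outside the cell, LOX and its paralogs LOXL1 to LOXL4, which are copper-dependent amine oxidases, convert lysines and hydroxylysines to aldehydes from which cross-links form between collagen or elastin molecules. Which lysines are hydroxylated sets the kind of cross-link. In carcinomas LOX, LOXL2 and PLOD2 are known for their part in stiffening the matrix.

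Reads assigned to genes numbered 11152625 to 15571367 in the Panc1 libraries and 6846761 to 19070551 in those of A549. The labels do not say whether the libraries of a group were grown as separate cultures; every p-value rests on the spread among these libraries alone, and that spread may be technical. Levels are CPM, read counts scaled to a common library size, with TMM factors computed within each line, and are given as mean ± SD (n = 3 in Panc1, n = 2 in A549). Log2 fold changes are given ± SE from edgeR's quasi-likelihood test, with p-values adjusted over all genes tested, and a change was called at an adjusted p under 0.05. KLF10, the siRNA's target, was 1.69-fold lower in Panc1 siKLF10 than in siCont (−0.76 ± 0.0603, adjusted p = 2.58e-09) and 1.92-fold lower in siKLF10+TGFb than in TGFb (−0.94 ± 0.0593, adjusted p = 4.96e-11). In A549 it stood at 102 and 109 CPM in siKLF10 against 110 and 107 CPM in siCont (−0.05 ± 0.0802, adjusted p = 0.743), so these are called the A549 libraries labelled siKLF10. In A549 with TGFβ, KLF10 was 1.22-fold lower in the libraries labelled siKLF10+TGFb (−0.29 ± 0.0779, adjusted p = 0.00775), a call lost without TGFb A (adjusted p = 0.0624) or TGFb B (adjusted p = 0.057).

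Markers of other cell types moved with some groups, and their part in the results below was not tested. Of 12 basal keratinocyte markers, 10 were tested in Panc1, where 8 were lower with TGFβ and 7 lower with siKLF10 than in siCont and none higher. Their summed level was 135 to 215 CPM in Panc1 siCont and 65.4 to 104 CPM in the other Panc1 groups, with KRT6B at 0 in all 12 Panc1 libraries. In A549 it was 140 to 145 CPM in siCont, 164 to 180 in TGFb, 181 to 185 in siKLF10 and 250 to 257 in siKLF10+TGFb. The sum of 7 fibroblast markers was 59.7 to 62 CPM in Panc1 siCont, 94 to 96.5 in TGFb, 50.3 to 57.2 in siKLF10 and 73.4 to 84.7 in siKLF10+TGFb. The A549 sums were 1.49 to 2.03 CPM in siCont, 10.4 to 12.7 in TGFb, 2.95 to 4.47 in siKLF10 and 16.9 to 17.1 in siKLF10+TGFb. Of those 7, 4 were called higher with TGFβ in each line, of 5 tested in each. An average of at least 1 CPM was reached by 2 of the 7 in Panc1 siCont and 4 in Panc1 TGFb. In A549 it was reached by 0 in siCont and 4 in TGFb. Of 4 haematopoietic markers CD3E was at 0 in every group of both lines, and the sum was 264 to 285 CPM in Panc1 siCont, 156 to 171 in TGFb, 73 to 97.1 in siKLF10 and 38.3 to 54.9 in siKLF10+TGFb. It was 29.1 to 29.7 CPM in A549 siCont, 50.9 to 54.3 in TGFb, 16.4 to 17.3 in siKLF10 and 33.3 to 34.6 in siKLF10+TGFb. Only 1 or 2 of these 4 markers averaged at least 1 CPM in any group, so the sum follows those genes and does not show a cell type. PTPRC was also at 0 in Panc1 TGFb and siKLF10+TGFb. The 4 endothelial markers summed to at most 0.867 CPM in any library. As to the labelled origins, the pancreatic duct marker SOX9 stood at 235 ± 8.81 CPM in Panc1 siCont and 38 ± 0.313 CPM in A549 siCont, while KRT7, also a duct marker, stood at 16.1 ± 9.1 CPM in Panc1 siCont and 2190 ± 6.3 CPM in A549 siCont. The 5 lung markers summed to at most 2.51 CPM in A549, with SFTPA1 and SFTPB at 0 in siCont. The 3 genes followed as high in A549 were so: ALDH1A1 stood at 12000 ± 142 CPM in A549 siCont and 5.52 ± 1.2 in Panc1 siCont. AKR1B10 stood at 4450 ± 216 and 0.492 ± 0.236 CPM, and AKR1C1 at 358 ± 17.5 and 1.5 ± 0.841. The 5 epithelial markers summed to 4580 to 4740 CPM in A549 siCont and 847 to 973 in Panc1 siCont. In Panc1 the sum was 434 to 458 CPM in TGFb, 879 to 944 in siKLF10 and 699 to 830 in siKLF10+TGFb. In A549 it was 1630 to 1800 CPM in TGFb, 4800 to 5270 in siKLF10 and 1810 to 2230 in siKLF10+TGFb. With TGFβ, 5 of 5 were called lower in Panc1 and 4 of 5 in A549, beside 15.1% and 23.5% of all genes. In bulk RNA, fewer cells of a type and less RNA per cell cannot be told apart.

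Promoter sequences are shown for 4 members on which the results turn and for which RefSeq gave a window: LOX and LOXL4, the lysyl oxidases that rose most with TGFβ in Panc1, P4HA2, which rose 3.73-fold in A549, and PLOD2, the most abundant member. Each window runs from 250 bases before to 50 bases after a transcript start, 5′ to 3′ on the gene's strand, in build GRCh38.p14. All 4 genes lie on the minus strand. The windows are LOX at chr5:122078210-122078509 (the most upstream of its 3), PLOD2 at chr3:146161135-146161434, P4HA2 at chr5:132227042-132227341 and LOXL4 at chr10:98268145-98268444. Capitals mark matches, on either strand, to the SMAD element CAGAC and to the hypoxia response core ACGTG or GCGTG, which may overlap.
LOX: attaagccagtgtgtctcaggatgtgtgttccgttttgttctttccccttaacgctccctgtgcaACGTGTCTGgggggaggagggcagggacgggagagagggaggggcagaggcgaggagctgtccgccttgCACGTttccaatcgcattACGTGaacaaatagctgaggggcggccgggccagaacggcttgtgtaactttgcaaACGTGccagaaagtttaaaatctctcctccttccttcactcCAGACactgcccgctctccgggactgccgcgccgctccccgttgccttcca
PLOD2: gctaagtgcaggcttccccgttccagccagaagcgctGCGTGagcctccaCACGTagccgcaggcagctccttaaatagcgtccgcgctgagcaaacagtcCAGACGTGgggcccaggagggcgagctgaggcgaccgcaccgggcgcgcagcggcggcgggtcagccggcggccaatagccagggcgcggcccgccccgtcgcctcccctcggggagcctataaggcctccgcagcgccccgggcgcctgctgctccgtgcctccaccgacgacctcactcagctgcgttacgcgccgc
P4HA2: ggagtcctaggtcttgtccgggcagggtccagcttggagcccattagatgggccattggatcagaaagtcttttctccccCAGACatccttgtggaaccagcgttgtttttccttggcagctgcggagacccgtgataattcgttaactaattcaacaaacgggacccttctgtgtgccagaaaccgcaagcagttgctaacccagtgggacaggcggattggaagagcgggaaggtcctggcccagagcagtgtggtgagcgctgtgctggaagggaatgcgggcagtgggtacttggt
LOXL4: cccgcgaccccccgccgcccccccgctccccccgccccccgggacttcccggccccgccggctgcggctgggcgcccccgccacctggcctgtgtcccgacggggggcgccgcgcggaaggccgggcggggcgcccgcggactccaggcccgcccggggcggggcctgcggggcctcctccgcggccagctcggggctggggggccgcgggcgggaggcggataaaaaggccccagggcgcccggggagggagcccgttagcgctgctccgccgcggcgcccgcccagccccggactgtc

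The LOX window held 2 matches to CAGAC and 4 to the hypoxia core, and the PLOD2 window held 1 and 3. The P4HA2 window held 1 match to CAGAC and none to the hypoxia core. The LOXL4 window held neither, but 7 matches to the GC box GGGCGG, which zinc-finger factors of the SP and KLF family are known to bind. The LOX and PLOD2 windows each held 1 match to the GC box and the P4HA2 window none. Of 35116 promoter windows of the same length in the RefSeq table, 45.3% held CAGAC, 48.4% the hypoxia core and 45.0% the GC box, so these letters are common. These are shares of windows with any match, and how many windows held as many as 7 was not computed. The longer palindrome GTCTAGAC stood in 0.202% of windows and in none of the 4 shown. CACCC stood in 59.9% of all windows and likewise in none of the 4 shown. Windows were found for 9 of the 10 members; LOXL2 had no entry. The other members' windows were searched in the same way. LOXL1 held 1 match to CAGAC. PLOD1 held 2 to the hypoxia core and 4 to the GC box, and PLOD3 held 4 to the GC box. The further windows of LOX each held 2 matches to CAGAC and 2 to the hypoxia core. Of the windows of LOXL3, 1 held no match and the other held 1 to CAGAC, 1 to the hypoxia core and 2 to the GC box. Those of SERPINH1 held 1 and 3 matches to the hypoxia core and none to CAGAC. The SERPINH1 window with 3 also held 1 match to the GC box. A match is a description of the letters, not a bound site.

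PLOD2 was the most abundant member per kilobase of exon in every group of both lines. Levels of different genes were compared per kilobase of exon (CPM per kb), over the exons of protein-coding transcripts in GENCODE v29. PLOD2 stood at 91.9 ± 3.51 CPM per kb in Panc1 siCont and 138 ± 1.42 CPM per kb in A549 siCont. In Panc1 siCont it was followed by PLOD1 at 31 ± 1.65, LOXL2 at 25 ± 1.26, PLOD3 at 17 ± 1.08 and SERPINH1 at 15.9 ± 0.493 CPM per kb; PLOD3 and SERPINH1 lay within their spread of each other. P4HA2 at 5.06 ± 0.401 and LOXL1 at 4.81 ± 0.265 CPM per kb also lay within their spread, above LOX at 3.96 ± 0.199, LOXL4 at 0.545 ± 0.141 and LOXL3 at 0.277 ± 0.0388. In A549 siCont the order after PLOD2 was PLOD1 at 38.1 ± 0.986 and LOXL2 at 27 ± 0.631 CPM per kb. P4HA2 at 17.5 ± 0.482, PLOD3 at 16.7 ± 1.81 and SERPINH1 at 16.4 ± 0.387 CPM per kb lay within their spread. LOXL3 at 0.932 ± 0.0959 and LOX at 0.826 ± 0.0208 CPM per kb lay within their spread, LOXL4 stood at 0.61 ± 0.0191 and LOXL1 at 0.0527 ± 0.0308 CPM per kb. With TGFβ, LOXL2 in A549 moved up to second place, at 148 ± 5.02 CPM per kb, and P4HA2 to the third, at 65.2 ± 1.92.

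**Figure D1:**
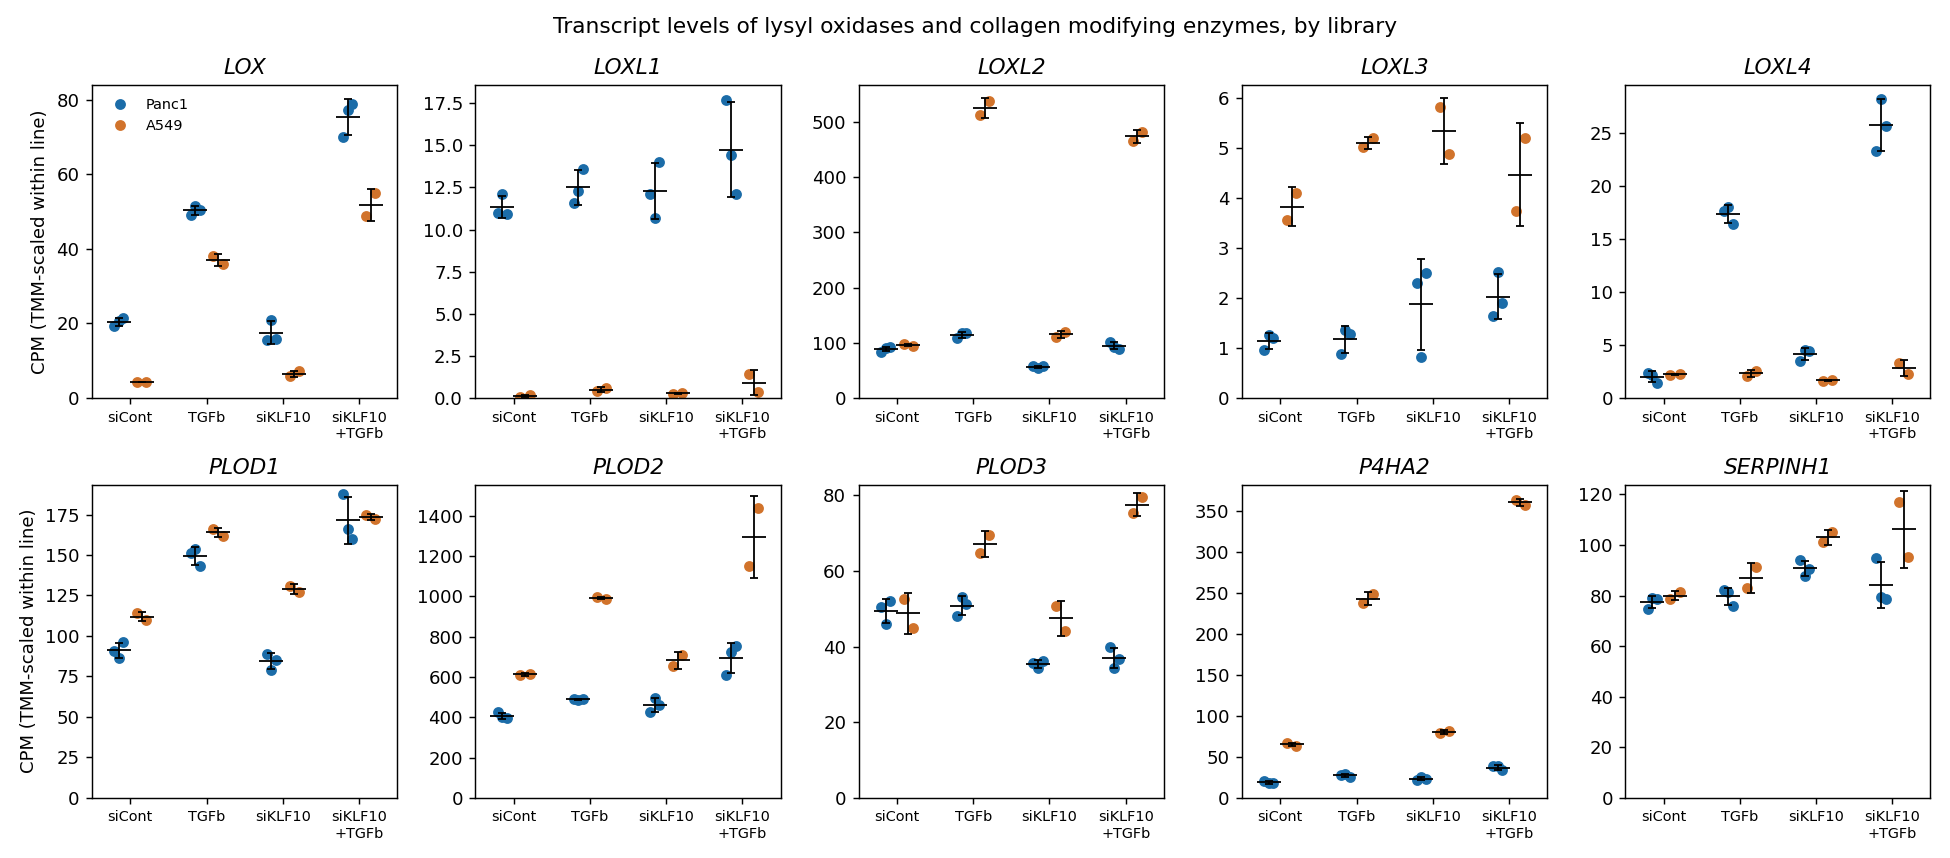
Level of each member (CPM, TMM-scaled within a line, linear axis from 0, a scale of its own per panel) in every library of the 4 groups; points are libraries, black bars the mean and SD (n = 3 in Panc1, n = 2 in A549). LOX was higher in each library with TGFβ than in those without, in both lines, as was LOXL4 in Panc1, and LOXL2 and P4HA2 reached their highest group means in A549, at 525 CPM in TGFb and 360 CPM in siKLF10+TGFb.

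Several members overlap another gene in the GENCODE v29 annotation. LOX overlaps SRFBP1, LOXL3 overlaps HTRA2 and DOK1, PLOD3 overlaps ZNHIT1, and P4HA2 overlaps PDLIM4 and SLC22A4, all on the opposite strand, while LOXL2 overlaps ENTPD4 on its own strand. LOXL1, LOXL4, PLOD2 and P4HA2 also have antisense partners. Whether counting used strand is not stated in the labels or notes, so reads in the overlaps cannot be told apart. This weighs most on LOXL3, which had 11 to 96 reads per library where HTRA2 had 144 to 826.

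Among libraries with the control siRNA and no TGFβ, the lines differed by more than 3-fold in LOXL1, LOX, P4HA2 and LOXL3. In a single fit over all 20 libraries, 2 of the 10 members were called higher and 4 lower in Panc1 siCont than in A549 siCont, where 39.0% and 42.9% of 15058 genes were called in those directions. LOXL1, among the 2 called higher, passed the filter of this fit only through the Panc1 libraries, so its call is not support. LOX stood at 19.4, 20.6 and 21.5 CPM in Panc1 siCont A, B and C and at 4.35 and 4.2 CPM in A549 siCont A and B, 4.66-fold higher in Panc1 (2.22 ± 0.151, adjusted p = 3.98e-15). P4HA2 went the other way, at 20.5, 18 and 17.8 CPM in Panc1 and 66.3 and 63.7 CPM in A549, 3.56-fold lower in Panc1 (−1.83 ± 0.0866, adjusted p = 2.07e-19). LOXL1, which cross-links elastin, was scarce in A549, with 467 reads summed over the 3 Panc1 libraries against 3 reads summed over 2 in A549, a ratio per read of 91.9 (exact 95% interval 31.3 to 447, counting error only). LOXL3 was 3.42-fold lower in Panc1 (adjusted p = 3.94e-06), PLOD2 1.54-fold lower (adjusted p = 9.22e-08) and PLOD1 1.26-fold lower (adjusted p = 0.000154). LOXL4, PLOD3 and SERPINH1 were not called, with 95% intervals of the log2 difference of −0.74 to 0.31, −0.20 to 0.17 and −0.25 to 0.09. LOXL2 was not called (−0.15 ± 0.0742, adjusted p = 0.0631), but was with DESeq2 (adjusted p = 0.0462), with RLE size factors (0.043) and without Panc1 siCont C (0.0397). Uniquely mapped reads that the counting assigned to no gene feature were 33.6 to 36.9% of the total in the Panc1 libraries and 57.6 to 60.1% in those of A549. Line, this share and anything else that differed between the sets of libraries cannot be told apart.

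TGFβ raised LOX in both lines, but the other lysyl oxidase that rose most differed: LOXL4 in Panc1 and LOXL2 in A549. In Panc1, LOX stood at 49.1, 51.4 and 50.5 CPM in TGFb A, B and C against 19.4, 20.6 and 21.5 CPM in siCont, a 2.45-fold rise (1.29 ± 0.0936, adjusted p = 2.11e-10). In A549 it stood at 38.1 and 35.9 CPM in TGFb against 4.35 and 4.2 CPM in siCont, an 8.64-fold rise (3.11 ± 0.146, adjusted p = 7.32e-14). No library with TGFβ overlapped a siCont library in either line. Non-overlap says little in A549, with 2 libraries a group, where the uncalled LOXL3 and SERPINH1 did not overlap either. The share of all genes without overlap was not computed. LOXL4 was at 2.36, 2.21 and 1.4 CPM in Panc1 siCont and at 17.6, 18 and 16.4 CPM in Panc1 TGFb, an 8.77-fold rise (3.13 ± 0.159, adjusted p = 4.23e-13). In A549 LOXL4 was not called, with 2.18 and 2.28 CPM in siCont and 2.11 and 2.52 CPM in TGFb (0.04 ± 0.323, 95% interval −0.63 to 0.71, adjusted p = 0.934).

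LOXL2, which oxidises collagen IV among other substrates, was 83.7, 90.4 and 92.2 CPM in Panc1 siCont and 108, 117 and 117 CPM in TGFb, a 1.28-fold rise (0.36 ± 0.0662, adjusted p = 0.000182). In A549 it went from 97.5 and 94.4 CPM to 512 and 537 CPM, a 5.47-fold rise (2.45 ± 0.0783, adjusted p = 1.11e-16). The A549 libraries with TGFβ were thus above every Panc1 library, on levels scaled separately in each line. LOXL1 in Panc1 was 11, 12.1 and 10.9 CPM in siCont and 11.6, 12.3 and 13.6 CPM in TGFb, with overlapping groups (0.14 ± 0.134, adjusted p = 0.468). In A549 it had 1 to 4 reads per library in these groups and was not tested; summed reads gave a TGFb to siCont ratio of 3.82 with an exact 95% interval of 0.917 to 22.4. LOXL3 was not called in Panc1 (0.04 ± 0.372, adjusted p = 0.947), where it had 12 to 19 reads per library in these groups, nor in A549 (0.42 ± 0.237, adjusted p = 0.156).

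Among the lysyl hydroxylases, PLOD1 and PLOD2 rose with TGFβ in both lines and PLOD3 rose in A549. PLOD1 stood at 90.4, 86.5 and 96.2 CPM in Panc1 siCont and 151, 154 and 143 CPM in TGFb, a 1.64-fold rise (0.71 ± 0.0692, adjusted p = 2.76e-08). In A549 it was 114 and 110 CPM in siCont and 166 and 162 CPM in TGFb, a 1.47-fold rise (0.55 ± 0.077, adjusted p = 3.66e-06). The groups did not overlap in either line. PLOD2 was 426, 400 and 398 CPM in Panc1 siCont and 489, 485 and 491 CPM in TGFb, a 1.2-fold rise (0.26 ± 0.0706, adjusted p = 0.00751). A549 held 609 and 617 CPM of it in siCont and 997 and 988 CPM in TGFb, a 1.62-fold rise (0.70 ± 0.0891, adjusted p = 1.46e-06). PLOD2 groups did not overlap in either line, and the rise was the smaller in Panc1. PLOD3 in Panc1 lay at 50.4, 45.9 and 52 CPM in siCont and 48.2, 53 and 51.3 CPM in TGFb (0.04 ± 0.0748, adjusted p = 0.756). A549 PLOD3 was 52.5 and 45 CPM in siCont and 64.8 and 69.6 CPM in TGFb, a 1.37-fold rise (0.46 ± 0.1, adjusted p = 0.000686).

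P4HA2, like LOXL2, rose in both lines and by a larger fold in A549. It was 20.5, 18 and 17.8 CPM in Panc1 siCont and 27.8, 28.6 and 25.2 CPM in TGFb, a 1.45-fold rise (0.53 ± 0.094, adjusted p = 0.000113). In A549 it was 66.3 and 63.7 CPM in siCont and 237 and 248 CPM in TGFb, a 3.73-fold rise (1.90 ± 0.0786, adjusted p = 9.8e-15). Both groups were well apart in each line. SERPINH1, the collagen chaperone, was not called in either line. It was 74.8, 79 and 78.8 CPM in Panc1 siCont and 82, 81.3 and 75.7 CPM in TGFb (0.04 ± 0.072, 95% interval −0.11 to 0.19, adjusted p = 0.743). A549 SERPINH1 was 78.7 and 81.3 CPM in siCont and 82.9 and 91.3 CPM in TGFb (0.12 ± 0.098, 95% interval −0.08 to 0.32, adjusted p = 0.333).

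In all, 6 of the 10 members rose with TGFβ in Panc1 and none fell, where 14.0% of 13218 genes were called higher and 15.1% lower. The members' median log2 change was 0.31, against −0.0049 over all genes. In A549, 6 of 9 tested members rose and none fell, where 24.2% of 14124 genes were called higher and 23.5% lower, with a median of 0.55 against −0.011. Leaving out any library changed none of these calls of members.

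**Figure D2:**
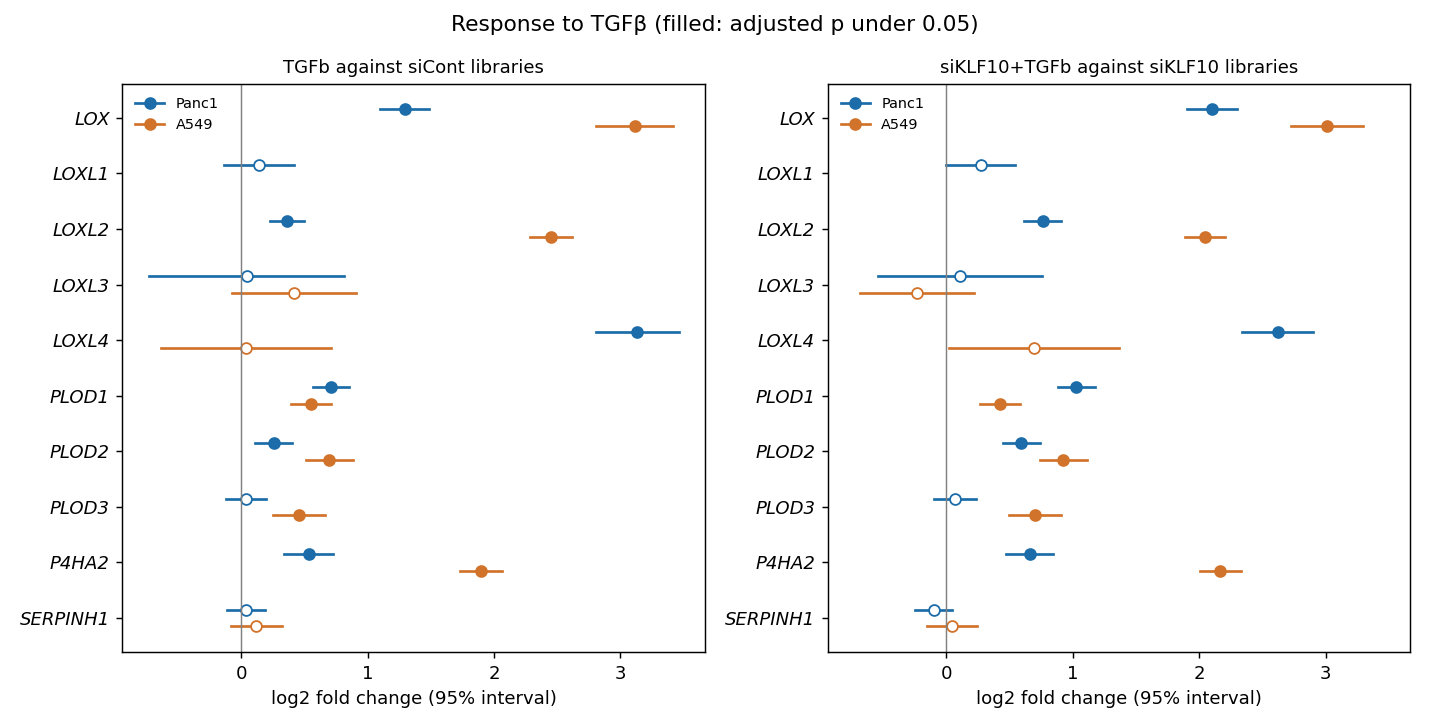
Log2 fold change with TGFβ for each member in Panc1 and A549 (points, with 95% intervals), for TGFb against siCont libraries on the left and siKLF10+TGFb against siKLF10 on the right; filled points have an adjusted p under 0.05, and LOXL1 was not tested in A549. LOX lies to the right of 0 in both lines, LOXL4 in Panc1 at 3.13, and LOXL2 and P4HA2 in A549 at 2.45 and 1.90 on the left.

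The difference between the lines in the TGFβ response was itself tested in the fit over all 20 libraries. It was called for 6 of 10 members, 1 with the larger response in Panc1 and 5 with the larger in A549, where 17.1% and 13.8% of 15058 genes were called in those directions. LOXL4 responded more in Panc1, by 3.17 ± 0.355 on the log2 scale (adjusted p = 9.41e-09). The Panc1 response minus the A549 response was −2.01 ± 0.104 for LOXL2 (adjusted p = 7.46e-17), −1.74 ± 0.188 for LOX (adjusted p = 4.81e-09) and −1.28 ± 0.12 for P4HA2 (adjusted p = 2.14e-10). These 4 differences were called in every fit that left out 1 library. PLOD2 (−0.36 ± 0.124, adjusted p = 0.0269) lost its call without Panc1 siCont A (adjusted p = 0.0578), A549 siCont A (0.0846), A549 siCont B (0.0675), A549 TGFb A (0.0899) or A549 TGFb B (0.0589). PLOD3 (−0.34 ± 0.128, adjusted p = 0.0425) lost its call without Panc1 siCont A (adjusted p = 0.0669) or C (0.0949), Panc1 TGFb A (0.0849) or C (0.0555), A549 siCont B (0.259), or A549 TGFb A (0.0632) or B (0.149). For PLOD1 the difference was not called (0.24 ± 0.108, 95% interval 0.02 to 0.46, adjusted p = 0.0896), nor for SERPINH1 (95% interval −0.25 to 0.25), LOXL1 or LOXL3.

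The make-up of the lysyl oxidase family differed between groups, with the largest differences in Panc1. Shares of the family's summed CPM per kb, averaged over libraries, were used. LOXL2 made up 72.2% ± 0.909 of the family in Panc1 siCont and 61.6% ± 0.455 in TGFb. LOX went from 11.4% ± 0.247 to 18.6% ± 0.348, and LOXL4 from 1.58% ± 0.452 to 9.1% ± 0.623. In Panc1 siKLF10+TGFb, LOXL2 was at 48.6% ± 2.04, LOX at 26.4% ± 2.44 and LOXL4 at 12.8% ± 1.36. In A549 LOXL2 made up 91.8% ± 0.566 in siCont, 94.1% ± 0.268 in TGFb and 91.6% ± 0.159 in siKLF10+TGFb, so that it was the main family transcript in each group there. LOX was 2.8% ± 0.0224 of the A549 family in siCont and 6.86% ± 0.384 in siKLF10+TGFb. Among the lysyl hydroxylases PLOD2 held the largest share throughout, from 61.7% ± 0.914 in Panc1 TGFb to 77.2% ± 2.72 in A549 siKLF10+TGFb. PLOD3 went from 12.1% ± 0.554 in Panc1 siCont to 5.59% ± 0.676 in Panc1 siKLF10+TGFb. These shares depend on the exon lengths used and were not tested.

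**Figure D3:**
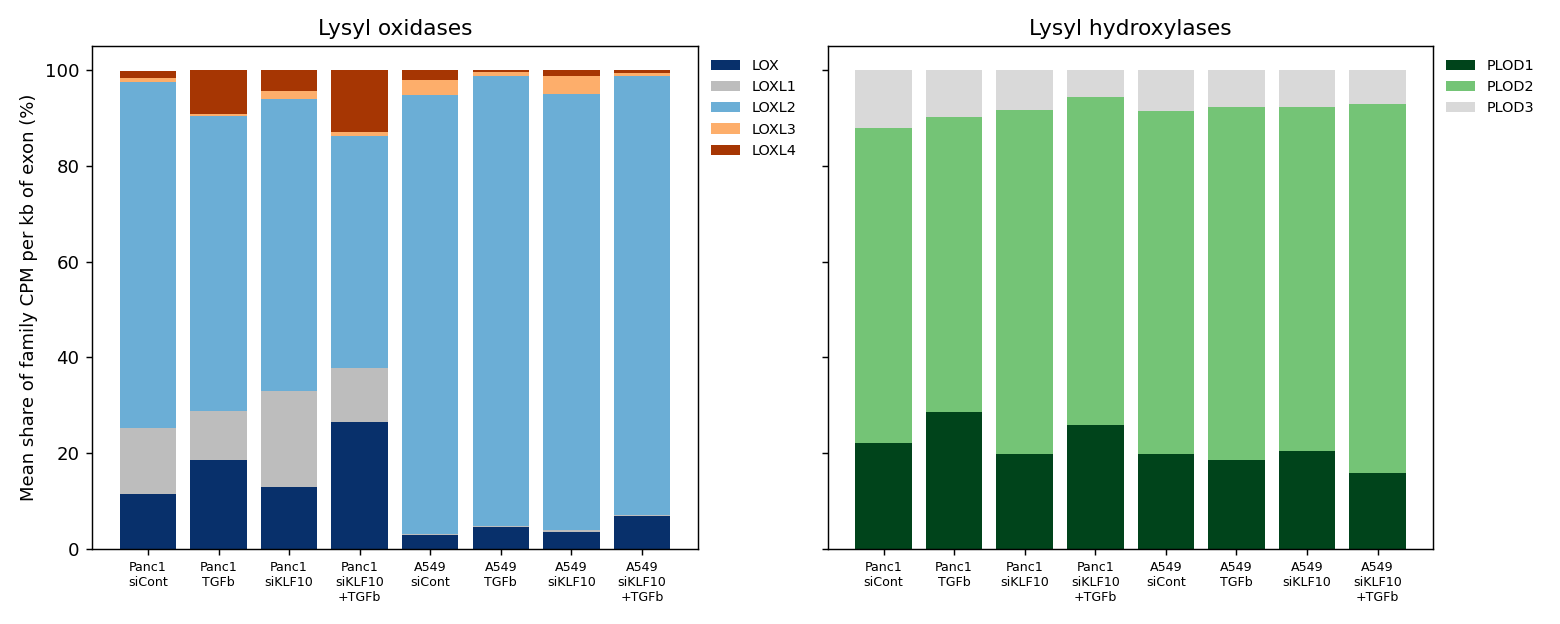
Mean share (%) of each gene in the summed CPM per kb of exon of the 5 lysyl oxidases (left) and the 3 lysyl hydroxylases (right), in the 4 groups of each line; bars are stacked to 100 and carry no error bars. LOXL2 fills 48.6 to 72.2% of the Panc1 bars and 91.2 to 94.1% of the A549 bars.

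Without TGFβ, Panc1 siKLF10 libraries held less LOXL2 and PLOD3 and more LOXL4 than siCont. LOXL2 stood at 57.5, 54 and 57.1 CPM in the siKLF10 libraries against 83.7, 90.4 and 92.2 CPM in siCont, 1.58-fold lower (−0.66 ± 0.0688, adjusted p = 1.49e-07). PLOD3 was 35.6, 34.2 and 36.2 CPM against 50.4, 45.9 and 52 CPM, 1.4-fold lower (−0.48 ± 0.0773, adjusted p = 4.17e-05). LOXL4 rose from 2.36, 2.21 and 1.4 CPM to 3.51, 4.53 and 4.4 CPM, 2.11-fold (1.08 ± 0.201, adjusted p = 0.000233). In these 3 genes no siKLF10 library overlapped siCont. Non-overlap also held for P4HA2 and SERPINH1, so it does not set the 3 genes apart, and its share over all genes was not computed. P4HA2 was 21.8, 25 and 23.3 CPM against 20.5, 18 and 17.8 CPM (0.32 ± 0.096, adjusted p = 0.0128), a call lost without siCont C (adjusted p = 0.0529) or siKLF10 B (0.0614). SERPINH1 was 94, 87.9 and 90.3 CPM against 74.8, 79 and 78.8 CPM (0.23 ± 0.0718, adjusted p = 0.0174), a call lost without siCont A (adjusted p = 0.0663) or siKLF10 A (0.0599). LOX was not called, with 15.6 CPM in library A, 21 in B and 15.8 in C (−0.23 ± 0.104, adjusted p = 0.0914), where library B stood above the other two. Without that library LOX was called lower (−0.39, adjusted p = 0.00522), and LOXL3, at 2.31 CPM in library A, 0.83 in B and 2.5 in C, was called higher (1.08, adjusted p = 0.00877, against 0.71 ± 0.345, adjusted p = 0.116, with it). PLOD2 was not called (0.17 ± 0.0706, adjusted p = 0.0578), but was without siKLF10 A (adjusted p = 0.0233) and with no filter on low counts (0.0445). LOXL1 and PLOD1 were not called in any fit. The 3 members called higher and 2 called lower stood beside 17.3% and 18.3% of all genes, and their median log2 change was 0.15 over all 10, against 0.00091 over all genes.

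In A549, the libraries labelled siKLF10, in which KLF10 was not called lower, gave 4 small rises of members that did not survive the loss of any 1 library. LOX was 5.99 and 7.12 CPM against 4.35 and 4.2 CPM in siCont (0.59 ± 0.189, adjusted p = 0.0315). P4HA2 was 78.8 and 81.9 CPM against 66.3 and 63.7 CPM (0.30 ± 0.0806, adjusted p = 0.0103). SERPINH1 was 101 and 105 CPM against 78.7 and 81.3 CPM (0.36 ± 0.0966, adjusted p = 0.0103). LOXL2, at 111 and 119 CPM against 97.5 and 94.4 CPM, was the fourth (0.26 ± 0.0783, adjusted p = 0.023). The groups did not overlap in these genes, but neither did they in LOXL3, LOXL4, PLOD1 and PLOD2, which were not called. With 2 libraries a group, non-overlap thus does not set the called genes apart. Leaving out siCont A, siCont B, siKLF10 A or siKLF10 B lost each of the 4 calls. The log2 change was then 0.50 to 0.72 for LOX, 0.28 to 0.33 for P4HA2, 0.34 to 0.39 for SERPINH1 and 0.22 to 0.30 for LOXL2. LOX was also not called with DESeq2 (adjusted p = 0.0869). Genes called higher made up 9.57% and those called lower 9.96% of all genes, and the median log2 change was 0.26 over the 9 tested members, against 0.0032 over all genes. LOXL3, LOXL4, PLOD1, PLOD2 and PLOD3 were not called, and LOXL1, with 3 and 2 reads in the libraries labelled siKLF10, was not tested.

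With TGFβ present, Panc1 libraries with siKLF10 held more LOX, LOXL4, PLOD2 and P4HA2 and less PLOD3 and LOXL2 than those without. The TGFb labels name no siRNA, so siKLF10 and transfection cannot be told apart in this comparison. LOX was 69.9, 77.3 and 78.9 CPM in siKLF10+TGFb A, B and C against 49.1, 51.4 and 50.5 CPM in TGFb, 1.5-fold higher (0.58 ± 0.085, adjusted p = 1.17e-05). LOXL4 was 23.3, 28.2 and 25.7 CPM against 17.6, 18 and 16.4 CPM, 1.48-fold higher (0.57 ± 0.109, adjusted p = 0.000244). PLOD2 was 610, 723 and 753 CPM against 489, 485 and 491 CPM, 1.42-fold higher (0.51 ± 0.0704, adjusted p = 5.54e-06). In all 3 genes siKLF10+TGFb A was the lowest of its group and still above every TGFb library. That library differed from B and C by a chi-square over genes of 9.11 and 12.5 times its degrees of freedom. Between B and C it was 2.06 times, and pairs in other Panc1 groups reached 10.5 times. P4HA2 was 38.9, 38.2 and 33.3 CPM against 27.8, 28.6 and 25.2 CPM, 1.36-fold higher (0.44 ± 0.0888, adjusted p = 0.000407). PLOD1 was 188, 166 and 160 CPM against 151, 154 and 143 CPM (0.20 ± 0.0677, adjusted p = 0.0193), a call lost without TGFb C (adjusted p = 0.0893) or siKLF10+TGFb A (0.105). PLOD3 was 39.9, 34.4 and 36.6 CPM against 48.2, 53 and 51.3 CPM, 1.37-fold lower (−0.46 ± 0.0768, adjusted p = 6.13e-05). LOXL2 was 102, 93.2 and 89.5 CPM against 108, 117 and 117 CPM, 1.2-fold lower (−0.26 ± 0.0661, adjusted p = 0.00298). PLOD3 and LOXL2 were thus lower with siKLF10 whether or not TGFβ was given.

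The 5 members called higher and 2 called lower stood beside 21.1% and 20.6% of all genes in that Panc1 comparison, with a median log2 change of 0.34 over the 10 members against −0.0015 over all genes. SERPINH1, at 94.8, 79.5 and 78.6 CPM in siKLF10+TGFb, overlapped TGFb (0.09 ± 0.0719, adjusted p = 0.359). LOXL1, at 17.7, 14.4 and 12.1 CPM, was not called (0.24 ± 0.13, adjusted p = 0.138), but was without siKLF10+TGFb C (adjusted p = 0.0357). LOXL3 was not called either (0.77 ± 0.338, adjusted p = 0.0712), but was without siKLF10+TGFb A (adjusted p = 0.0435).

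In A549 with TGFβ, 4 of 9 tested members were called higher in the libraries labelled siKLF10+TGFb than in TGFb and none lower, where 14.4% of all genes were called higher and 13.9% lower. The median log2 change was 0.23 over the tested members and 0.0078 over all genes. P4HA2 was 363 and 357 CPM against 237 and 248 CPM, 1.49-fold higher (0.57 ± 0.0734, adjusted p = 5.09e-06). LOX was 48.8 and 54.9 CPM against 38.1 and 35.9 CPM, 1.4-fold higher (0.49 ± 0.108, adjusted p = 0.00174). PLOD2 was 1150 and 1440 CPM against 997 and 988 CPM, 1.3-fold higher (0.38 ± 0.0884, adjusted p = 0.0027). These 3 genes, which were also higher in the matching Panc1 comparison, kept their calls in every fit that left out 1 library. SERPINH1 was 117 and 95.3 CPM against 82.9 and 91.3 CPM (0.28 ± 0.0969, adjusted p = 0.0318), a call lost without TGFb A (adjusted p = 0.279), TGFb B (0.0608) or siKLF10+TGFb A (0.224) and with DESeq2 (0.0771). The siKLF10+TGFb libraries of A549 differed from each other more than those of any other A549 group. Their chi-square over genes was 11.4 times its degrees of freedom, against 2.22 to 2.97 times in the others and up to 12.5 times in Panc1 pairs. LOXL2, at 465 and 482 CPM against 512 and 537 CPM, was not called (−0.15 ± 0.0726, adjusted p = 0.141). PLOD3, at 75.3 and 79.6 CPM against 64.8 and 69.6 CPM, was not called (0.21 ± 0.0974, adjusted p = 0.114), but was without siKLF10+TGFb A (adjusted p = 0.0278). LOXL3, LOXL4 and PLOD1 were not called.

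**Figure D4:**
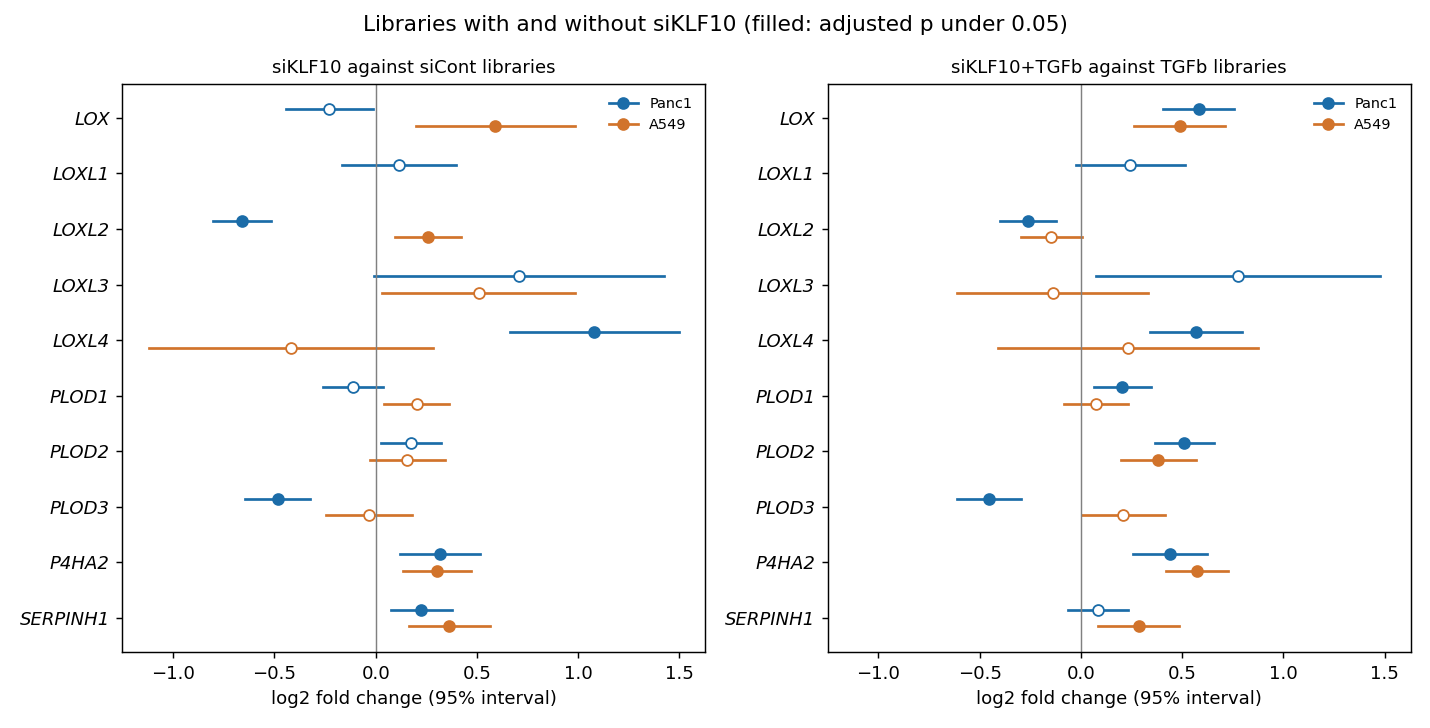
Log2 fold change of each member between libraries with and without siKLF10 in Panc1 and A549 (points, with 95% intervals), for siKLF10 against siCont on the left and siKLF10+TGFb against TGFb on the right; filled points have an adjusted p under 0.05, and LOXL1 was not tested in A549. LOXL2 and PLOD3 in Panc1 lie left of 0 in both panels, and LOX, PLOD2 and P4HA2 lie right of 0 in both lines on the right.

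The response to TGFβ was also measured among libraries with siKLF10. In Panc1, LOX rose 4.29-fold from siKLF10 to siKLF10+TGFb (2.10 ± 0.095, adjusted p = 3.66e-14), LOXL4 6.16-fold, PLOD1 2.04-fold, LOXL2 1.69-fold, P4HA2 1.58-fold and PLOD2 1.51-fold. These were 6 of 10 members, with none lower, where 22.6% of genes were called higher and 22.3% lower. LOXL1 was not called (0.27 ± 0.131, adjusted p = 0.0975), but was without siKLF10 C (adjusted p = 0.0463) or siKLF10+TGFb C (0.0221), and SERPINH1 was called lower without siKLF10+TGFb A (adjusted p = 0.0234, against 0.261 with it). In A549, LOX rose 8.05-fold (3.01 ± 0.137, adjusted p = 3.92e-14), P4HA2 4.49-fold, LOXL2 4.13-fold, PLOD2 1.9-fold, PLOD3 1.62-fold and PLOD1 1.34-fold. These were 6 of 9, where 26.5% of genes were called higher and 26.8% lower. LOXL4 was not called (0.69 ± 0.322, adjusted p = 0.0759), but was without siKLF10+TGFb B (adjusted p = 0.0276). LOXL1, which had too few reads to be tested with all libraries, was also called without that library. It then passed the filter only through the 14 reads of siKLF10+TGFb A, so this call is not support for a rise. The library left out held 7 reads of LOXL1. For LOXL1, with 21 reads in siKLF10+TGFb and 5 in siKLF10, the ratio per read was 2.61 (exact 95% interval 0.959 to 8.87). These comparisons share libraries with those above, so they are not independent of them.

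Whether the size of the TGFβ response differed with siKLF10 was tested as an interaction, the log2 response with siKLF10 minus that without. Because the TGFb labels name no siRNA, siKLF10 and transfection cannot be told apart in it. In Panc1 the interaction was called for 2 of 10 members, where 4.42% of genes were called. LOX responded more with siKLF10, by 0.81 ± 0.134 on the log2 scale (adjusted p = 0.00084). LOXL2 also responded more, by 0.40 ± 0.0954 (adjusted p = 0.0163), from a lower level without TGFβ; this call was lost without TGFb A (adjusted p = 0.0634). PLOD2 (0.33 ± 0.0997, adjusted p = 0.0585) and PLOD1 (0.32 ± 0.0979, adjusted p = 0.0698) were not called, but were with DESeq2 (adjusted p = 0.047 and 0.0492). PLOD2 was also called with no filter on low counts (adjusted p = 0.022), without siKLF10 B (0.0277) and without siKLF10+TGFb A (0.00212). LOXL4, which was higher with siKLF10 at both TGFβ settings, was not called (−0.51 ± 0.23, adjusted p = 0.23). In A549 the interaction was called for LOXL2 alone of 9 tested members, where 6.49% of genes were called, and in the opposite direction to Panc1 (−0.41 ± 0.107, adjusted p = 0.0243). That call was lost without siCont A (adjusted p = 0.0918), siCont B (0.148), TGFb A (0.0749), TGFb B (0.138), siKLF10 A (0.0571) or siKLF10 B (0.105). For LOX in A549 the 95% interval of the interaction was −0.55 to 0.35. PLOD2 in A549 was not called (0.23 ± 0.125, adjusted p = 0.331), but was without siKLF10+TGFb A (0.38, adjusted p = 0.00167).

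The lines differed in the effect of siKLF10 without TGFβ for 4 of 10 members, where 17.2% of genes were called. The Panc1 effect minus that in the A549 libraries labelled siKLF10 was −0.89 ± 0.107 for LOXL2 (adjusted p = 3.75e-07) and 1.52 ± 0.379 for LOXL4 (adjusted p = 0.00482). It was −0.79 ± 0.23 for LOX (adjusted p = 0.0151), lost without A549 siCont A (adjusted p = 0.0513), siCont B (0.0628) or siKLF10 B (0.0808). For PLOD3 it was −0.43 ± 0.132 (adjusted p = 0.0216), lost without Panc1 siCont C (adjusted p = 0.0514), A549 siCont B (0.171) or A549 siKLF10 A (0.232). PLOD1 was not called (−0.29 ± 0.109, adjusted p = 0.0643), but was with DESeq2 (0.0257), with RLE size factors (0.0348) and without Panc1 siKLF10 A (0.0437). With TGFβ, where 19.8% of genes were called, PLOD3 was the only member called (−0.70 ± 0.128, adjusted p = 0.000129). The 95% intervals of that difference were −0.23 to 0.34 for LOX, −0.16 to 0.34 for PLOD2 and −0.40 to 0.06 for P4HA2. SERPINH1 was called only without Panc1 siKLF10+TGFb A (adjusted p = 0.037) or A549 siKLF10+TGFb B (0.0421). The KLF10 transcript itself differed in the same test, with Panc1 minus A549 changes of −0.68 ± 0.0996 without TGFβ and −0.69 ± 0.0971 with it.

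Other genes of collagen maturation responded to TGFβ in part. Of 29 such genes, which fold, modify, export and trim procollagen, 28 were tested in each line; with TGFβ 12 were called higher and 2 lower in Panc1, and 11 higher and 4 lower in A549. Over all genes tested, 14.0% were called higher and 15.1% lower with TGFβ in Panc1, and 24.2% and 23.5% in A549. P4HA3, a further catalytic subunit of prolyl 4-hydroxylase, rose from 3.8 ± 0.938 to 31.1 ± 2.93 CPM in Panc1 (8.11-fold, adjusted p = 6.82e-14) and from 42.8 ± 3.08 to 276 ± 4.32 CPM in A549 (6.44-fold, adjusted p = 8.95e-17). P4HA1, the more widely expressed subunit, rose in Panc1 (0.46 ± 0.0598, adjusted p = 2.07e-06) but was not called in A549 (−0.09 ± 0.0947, adjusted p = 0.488). The partner subunit P4HB was not called in either line (adjusted p = 0.499 and 0.827). In A549, ADAMTS2, which removes the N-propeptide of procollagen, rose from 0.364 ± 0.104 to 27.7 ± 0.67 CPM (adjusted p = 4.09e-15), and BMP1, which removes the C-propeptide and also activates LOX, from 53.8 ± 2.79 to 180 ± 0.447 CPM (3.34-fold, adjusted p = 5.35e-13). With siKLF10 under TGFβ, 9 of the 28 were called higher and 6 lower in Panc1, P4HA1 among the higher (0.75 ± 0.0583, adjusted p = 1.71e-09), and 7 higher and 1 lower in A549, BMP1 among the higher (0.70 ± 0.0852, adjusted p = 2.45e-06). The shares of all genes in that comparison were 21.1% higher and 20.6% lower in Panc1, and 14.4% and 13.9% in A549. The list's medians for TGFβ were 0.13 in Panc1 and 0.18 in A549.

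Genes for substrates of lysyl oxidases and for the matrix scaffold rose in most cases. Of 26 such genes, 14 of 19 tested rose with TGFβ in Panc1 and none fell, and 17 of 21 rose in A549 and 2 fell, with medians of 1.2 and 1.76. Of all genes, 14.0% were called higher and 15.1% lower in Panc1, and 24.2% and 23.5% in A549. COL1A1, a chain of type I collagen, rose from 153 ± 8.52 to 1890 ± 69.8 CPM in Panc1 (12.3-fold, adjusted p = 1.66e-19) and from 6.32 ± 0.219 to 171 ± 11.4 CPM in A549 (27-fold, adjusted p = 2.96e-19). COL5A1, a chain of the fibril-initiating type V collagen, rose 8.51-fold in Panc1 (adjusted p = 3.95e-19) and 13.9-fold in A549 (adjusted p = 1.24e-18). With siKLF10 under TGFβ, 7 of 19 were called higher and 2 lower in Panc1, and 11 of 21 higher and 2 lower in A549, beside 21.1% and 20.6% of all genes in Panc1 and 14.4% and 13.9% in A549. In Panc1 the largest of these was THBS1, a matrix glycoprotein that can activate latent TGFβ, at 357 ± 26.6 against 123 ± 10.4 CPM (1.54 ± 0.0847, adjusted p = 2.41e-11). In A549 it was COL1A1, at 572 ± 14.6 against 171 ± 11.4 CPM (1.75 ± 0.0774, adjusted p = 2.77e-12), a gene that in Panc1 was not called (0.07 ± 0.0697, adjusted p = 0.477).

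LOX, LOXL2, PLOD1, PLOD2 and P4HA2 are also known as genes that hypoxia induces, so 16 other hypoxia-inducible genes were followed, P4HA1 among them. With TGFβ 6 of 14 tested were called higher and 3 lower in Panc1, and 5 of 16 higher and 6 lower in A549, with medians of 0.11 and −0.11, so calls went both ways. The shares over all genes were 14.0% higher and 15.1% lower in Panc1, and 24.2% and 23.5% in A549. VEGFA, an angiogenic growth factor, rose 8.94-fold in A549 (adjusted p = 1.08e-14), while CA9, a carbonic anhydrase, fell 4.52-fold there (adjusted p = 4.14e-08) and BNIP3, a mitophagy receptor, fell 2.02-fold in Panc1 (adjusted p = 2.94e-08). The Panc1 comparison of siKLF10+TGFb with siKLF10 had 11 of 14 higher and 2 lower, where 22.6% of all genes were called higher and 22.3% lower. In Panc1 siKLF10 against siCont, 3 of 14 were called higher and 7 lower, beside 17.3% and 18.3% of all genes. PFKFB3 (−1.31 ± 0.112) was among the lower. The A549 libraries labelled siKLF10 had 3 of 16 higher and 2 lower than siCont, beside 9.57% and 9.96%. With siKLF10 under TGFβ, 4 of 14 were called higher and 1 lower in Panc1, and 4 of 16 higher and 5 lower in A549, where all genes gave 21.1% and 20.6% in Panc1 and 14.4% and 13.9% in A549. SLC2A1, the glucose transporter GLUT1, was higher with siKLF10 in Panc1 under TGFβ (1.31 ± 0.0804, adjusted p = 3.96e-11) and in the A549 libraries labelled siKLF10+TGFb (0.70 ± 0.0775, adjusted p = 7.94e-07). PFKFB3, an enzyme that sets the level of a glycolytic activator, was lower in the same comparison in Panc1 (−0.51 ± 0.0959, adjusted p = 0.000183) and in A549 (−0.66 ± 0.0715, adjusted p = 5.33e-07). ADM, the peptide hormone adrenomedullin, was lower in A549 (−1.02 ± 0.0924, adjusted p = 4.77e-08) and not called in Panc1 (−0.17 ± 0.0683, adjusted p = 0.0556).

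Across libraries, the members varied in how closely they followed LOX. Pearson correlations of log2(CPM + 1) are given as a description, since the libraries share their groups. Over the 12 Panc1 libraries LOX correlated with PLOD1 at 0.965, LOXL4 at 0.937, P4HA2 at 0.858 and PLOD2 at 0.832, and with PLOD3 at 0.00 and SERPINH1 at −0.198. LOXL2 correlated with PLOD1 at 0.744, with LOX at 0.698 and with PLOD3 at 0.687. Over the 8 A549 libraries LOX correlated with P4HA2 at 0.995, LOXL2 at 0.985, PLOD1 at 0.981, PLOD2 at 0.968 and PLOD3 at 0.94, and with SERPINH1 at 0.345 and LOXL3 at 0.204. LOXL1 lay between, at 0.488 in Panc1 and, with few reads, at 0.724 in A549, as did LOXL4 in A549 at 0.59. PLOD3 ran with LOX in A549 and not in Panc1. Among all genes averaging at least 5 CPM, the one most like LOX in Panc1 was PTPRK, a receptor tyrosine phosphatase (0.994), and in A549 CDH4, a cadherin (0.999). Most like LOXL4 in Panc1 were TPM1 (0.995), a tropomyosin, and AMIGO2 (0.992). Most like P4HA2 in A549 were TGFBR1 (0.999), a TGFβ receptor, RHOU (0.999) and COL1A1 (0.999). LOXL2 was most like PNP in Panc1 (0.986) and PDGFB in A549 (0.998), and PLOD2 most like ERBB2IP in Panc1 (0.990) and DYNC1LI2 in A549 (0.998). BHLHE40, a transcriptional repressor, was among the 3 genes most like PLOD1 in Panc1 (0.995) and LOX in A549 (0.999).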

How the data were processed

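Total RNA was extracted with TRIzol, enriched for poly(A) and made into libraries with a directional kit, per the labels' protocols. The authors deposited a table of read counts per gene for each of 20 libraries; the submitters' processing notes name TopHat, Bowtie2, HTSeq 0.6.0, DESeq2 and build hg19, with no role or order. Lines naming no gene were dropped before library sizes were summed. Uniquely mapped reads assigned to no gene feature were 33.6 to 36.9% of the total in Panc1 and 57.6 to 60.1% in A549. Where in the genome these reads lay is not given, so they need not lie outside genes. The authors' own tables of comparisons were not used here.

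The tests used edgeR 4.0.16 (R 4.3.3) on these counts: filterByExpr (minimum count 10, minimum total 15), TMM, and a robust quasi-likelihood group-means fit per line, with residual degrees of freedom 8 (Panc1) and 4 (A549), or over both lines (12). P-values were adjusted by Benjamini-Hochberg over all genes tested in each comparison. The scripts were tested on simulated data. The members, the lists and the rule for other named genes (up to 4 called genes per list and comparison, by size of change, at a mean of at least 1 CPM, and the 3 genes most like each member) were chosen with earlier results of these data known; fewer are printed. Lengths and overlaps are from GENCODE v29 (GRCh38), not the authors' annotation, and promoter windows from RefSeq. The floor for a gene near 0 was 3 counts per library, 0.157 to 0.438 CPM; intervals and floors cover counting error only. Alternatives were DESeq2 1.42.0, RLE size factors, no filter, plain CPM, a replicate block and leaving out each library.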

Additional observations from a re-analysis of the deposited data

Results flagged for a closer look

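Differences of effects between lines, or between TGFβ with and without siKLF10, that passed an interaction test with edgeR (adjusted p under 0.05) are listed here. The TGFβ response was larger with siKLF10 in Panc1 for LOX (difference 0.81 on the log2 scale, adjusted p = 0.00084) and LOXL2 (0.40, adjusted p = 0.0163), and smaller in the A549 libraries labelled siKLF10 for LOXL2 (−0.41, adjusted p = 0.0243). Between the lines, the TGFβ response in Panc1 minus that in A549 was −1.74 for LOX, −2.01 for LOXL2, 3.17 for LOXL4, −0.36 for PLOD2, −0.34 for PLOD3 and −1.28 for P4HA2. The siKLF10 effect without TGFβ differed between lines by −0.79 for LOX, −0.89 for LOXL2, 1.52 for LOXL4 and −0.43 for PLOD3, and with TGFβ by −0.70 for PLOD3. Both LOXL2 interactions and the line differences of PLOD2 and of PLOD3 without siKLF10, and of LOX and PLOD3 for siKLF10 without TGFβ, were lost when some single libraries were left out. No group had 4 libraries, so single libraries were not tested as outliers.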

How the results depend on the processing

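Over all alternatives, 1388 of 1465 refitted changes of members kept their direction or stayed uncalled on the same side of the threshold, 52 lost and 25 gained a call, and no called change turned its direction. With DESeq2, the Panc1 interaction had 4 members called (2 with edgeR), and fewer genes were called for A549 siKLF10 (1676 against 2758), A549 siKLF10+TGFb against TGFb (2647 against 3996) and the A549 interaction (554 against 916). Leaving out 1 library gave 349 to 1035 genes and 1 to 3 members in the Panc1 interaction (584 genes with all), the highest without siKLF10+TGFb A and the lowest without siKLF10+TGFb B. It gave 1326 to 1638 genes and 0 members in A549 siKLF10, where edgeR called 4 members with all libraries and DESeq2 3. It gave 2237 to 5409 genes in A549 siKLF10+TGFb against TGFb, and 379 to 2685 genes and 0 to 2 members in the A549 interaction, the highest of both without A549 siKLF10+TGFb A and the lowest counts of genes without TGFb A and siCont B. For the line difference in the siKLF10 effect it gave 1570 to 2512 genes (2597 with all) and 2 to 5 members without TGFβ, and 1895 to 3321 genes (2979) and 1 to 2 members with it, with the fewest genes without A549 siKLF10 A and A549 TGFb A. Where that left a group with 1 library, it was assumed to vary like the other groups; fewer libraries also leave fewer degrees of freedom. In Panc1 the replicate letters did not pair the libraries. There, correlations of deviations ran from −0.429 to 0.629 in 18 same-letter pairs and from −0.617 to 0.496 in other pairs. Only 4 of 12 Panc1 libraries correlated best with their own letter. In A549, 12 same-letter pairs ran from −0.0176 to 0.258 and other pairs from −0.258 to 0.0176. With 2 libraries a group these 2 ranges mirror each other. There 6 of 8 libraries correlated best with their own letter, so the letters may pair the A549 libraries, which was not tested. A fit with the replicate letter as a block changed none of 135 member calls. It gave 3776 genes called for TGFβ in Panc1 against 3839. In A549 it gave more genes, 6943 against 6733 for TGFβ and 2973 against 2758 for siKLF10. LOXL1 in A549 (1 to 14 reads per library) and LOXL3 and LOXL4 outside Panc1 with TGFβ (11 to 96 reads) are limited by depth.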

Other observations

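Type I collagen, a main substrate of the members, was read almost wholly from the gene of 1 chain. COL1A2, chosen here after its values were seen, was at 0 to 0.163 CPM in the Panc1 libraries and at 0 to 0.325 CPM in the A549 libraries, about or below the floor of 3 counts, while COL1A1 reached 1970 ± 204 CPM in Panc1 and 572 ± 14.6 CPM in A549 siKLF10+TGFb. The basement membrane chains COL4A1 and COL4A2 stood at 1350 ± 2.66 and 1960 ± 2.71 CPM in A549 TGFb and at 2.4 ± 0.361 and 2.47 ± 0.0821 CPM in Panc1 TGFb.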
